A study of Mus musculus with 6 samples.

Results

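The genes described here are 8 members of the RGS family, the regulators of G protein signalling: Rgs1, Rgs2, Rgs3, Rgs10, Rgs14, Rgs16, Rgs18 and Rgs19. They were taken by symbol from a table of 25759 gene identifiers, and each symbol matched 1 identifier. The table gives FPKM, fragments per kilobase of transcript relative to all mapped fragments of the library, for 6 RNA sequencing libraries of mouse adaptive regulatory T cells (aTreg). The 8 genes were picked with earlier results of this comparison in view, so the values that chose them are the levels and differences shown here. Genes selected on a readout cannot be tested on it, and these are given as a description, with no p-value.

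There were 3 wild type (WT) libraries, from normal C57BL/6 mice, and 3 BMPR1a-deficient libraries, from BMPR/CD4cre mice of the same strain, called deficient below. Both groups carried a Foxp3GFP reporter transgene and both were 8 to 12 weeks old. Lymph node and spleen cells were activated together for 3 days with 2 µg/ml of the mitogen concanavalin A, 3 ng/ml of TGF-beta and 10 ng/ml of IL-2. CD4+Foxp3GFP+ cells were then sorted by flow cytometry. BMPR1a is a receptor of the type I class that bone morphogenetic proteins (BMPs) signal through. A Cre recombinase driven by Cd4 is active from the thymus onwards, and so in CD4 and CD8 T cells alike. The labels do not say that WT mice carried the recombinase, so the receptor's loss and the presence of Cre cannot be told apart. Nor do they name the animal or culture behind each library, so the spread between libraries may be technical.

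A G protein-coupled receptor switches on a heterotrimeric G protein by making its alpha subunit exchange GDP for GTP, and the signal lasts until the alpha subunit hydrolyses the GTP. RGS proteins speed up that hydrolysis through a shared RGS domain and so shorten the signal. In lymphocytes the receptors concerned include those for chemokines and for sphingosine 1-phosphate, which guide cells into, through and out of lymphoid organs. Members of the R4 subfamily (here Rgs1, Rgs2, Rgs3, Rgs16 and Rgs18) are mostly small proteins, and several are known to be induced when lymphocytes are activated. Rgs10 and Rgs14 belong to the R12 subfamily and Rgs19 to the RZ subfamily.

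Bmpr1a itself was low in both groups. It stood at 1.39, 2.34 and 1.31 FPKM in WT and at 0.439, 0.720 and 0.691 in the deficient libraries, all below WT, with 36.7% of the WT mean remaining. The difference did not pass in the limma fit across all genes (log2 difference -0.71, adjusted p = 0.183). The cells carried the markers of their label: Cd4 lay between 329 and 436 FPKM over the 6 libraries and Foxp3 between 49.4 and 96.9. Of 8 listed markers of CD4 regulatory T cells, 0 lay above and 1 below without overlap, against 15.9% and 10.4% of all genes. Shares of all genes are given over the 13413 genes with a mean of at least 1 FPKM. The 1 marker below was Ctla4, at 238, 275 and 249 FPKM in WT and 103, 204 and 203 in the deficient group. The steps between the smallest values pointed to depths of about 29500000 to 38900000 fragments per library. BMPR1a-deficient replicate 1 stood apart. The summed FPKM of its 13 mitochondrially encoded genes was 5335, against 44656.9 and 44712.5 in the other libraries of its group and 50441.8 to 53788.5 in WT.

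Of the 8 genes, 4 lie on chromosome 1. In GRCm38, with GENCODE M21 annotation, Rgs2 (143999338 to 144004161), Rgs1 (144242296 to 144249242) and Rgs18 (144752683 to 144775435) form a run on the minus strand together with Rgs13 and Rgs21. Rgs16 lies apart from that run on the plus strand (153740349 to 153745468), next to Rgs8. Rgs3 is on chromosome 4, Rgs10 on chromosome 7, Rgs14 on chromosome 13 and Rgs19 on chromosome 2. All 8 are annotated as protein-coding. Rgs16 and Rgs18 have 1 annotated transcript each, and Rgs3 has 17. Gene-level FPKM does not separate transcripts. Gm11209, annotated antisense to Rgs3, had a mean of 0.431 FPKM, and Gm15503, on the strand of Rgs10 and inside its span, one of 1.499 FPKM. An antisense gene, Gm28513, also overlaps the 3′ end of Rgs16 and was not analysed here. The strand handling is not given in the sources used here, so reads of these overlapping genes cannot be told apart.

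Promoter windows from RefSeq (GRCm38.p6) were found for 5 of the 8 genes. The windows of 3 are shown, as each stands for a different pattern in the values below: Rgs16, whose libraries lay furthest apart between the groups, Rgs2, whose libraries overlapped, and Rgs10, which had the highest level. Each sequence runs 5′ to 3′ on the gene's strand, from 250 to 21 bases before the annotated start. Capitals mark matches, on either strand, to any of 4 motifs: CAGAC (the SMAD box), GGCGCC (a GC-rich box bound by BMP-activated SMADs), TGACG (the half-site of the cAMP response element) and TGANTCA (AP-1). The windows are chr1:153740103-153740332 on the plus strand for Rgs16, chr1:144004170-144004399 on the minus strand for Rgs2 and chr7:128418193-128418422 on the minus strand for Rgs10.

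Rgs16: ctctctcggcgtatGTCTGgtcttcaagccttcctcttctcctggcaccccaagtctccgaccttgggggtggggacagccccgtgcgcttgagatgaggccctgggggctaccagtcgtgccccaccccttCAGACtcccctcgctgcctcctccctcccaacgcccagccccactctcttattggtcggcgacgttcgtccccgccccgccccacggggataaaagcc
Rgs2: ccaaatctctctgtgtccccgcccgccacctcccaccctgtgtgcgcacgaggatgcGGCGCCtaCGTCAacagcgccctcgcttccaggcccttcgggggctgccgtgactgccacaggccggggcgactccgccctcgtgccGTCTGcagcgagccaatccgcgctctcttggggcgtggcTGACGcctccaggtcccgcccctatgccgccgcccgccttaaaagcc
Rgs10: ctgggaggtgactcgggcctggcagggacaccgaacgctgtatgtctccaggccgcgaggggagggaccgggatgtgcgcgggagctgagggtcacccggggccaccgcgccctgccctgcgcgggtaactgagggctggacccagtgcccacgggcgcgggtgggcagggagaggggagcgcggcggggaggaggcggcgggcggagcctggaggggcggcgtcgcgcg

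The Rgs16 window held 2 matches, both to CAGAC or its complement GTCTG. The Rgs2 window held 4, of which 2 were to TGACG or its complement CGTCA, 1 to GTCTG and 1 to GGCGCC. The Rgs10 window held 0, which says only that these letters are not in it. The GENCODE M21 span of Rgs10 reaches 128418758, its 5′ end on the minus strand. The window thus lies inside that span and not upstream of the GENCODE gene start. No matches overlapped in these 3 windows. Among the windows not shown, 1 of Rgs3 held CAGAC and GGCGCC and 1 of Rgs19 held GGCGCC. The other windows of those genes held 0. Of 32841 windows of the same length in the RefSeq table, 39.7% held CAGAC, 15.9% TGACG, 8.63% GGCGCC and 6.34% TGANTCA on either strand. A match is a description of the sequence and not a site of binding.

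Rgs16 had the largest difference of the 8. The protein acts on Gi and Gq alpha subunits and is known to dampen chemokine-driven migration of T cells. Its transcript (ENSMUSG00000026475) stood at 7.35, 7.65 and 5.10 FPKM in the WT libraries and at 34.9, 29.4 and 31.0 in the BMPR1a-deficient ones. The groups lay far apart: the lowest deficient library was above the highest WT library, and the spread within each group was small beside the distance between them. The means were 6.70 ± 1.40 and 31.7 ± 2.87 FPKM (SD, n = 3 per group), a ratio of 4.74. The difference was 2.10 on the log2(FPKM + 1) scale (SE 0.162). It was as large without BMPR1a-deficient replicate 1, at 2.03.

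Rgs1 showed the next largest difference. It is the RGS protein of activated lymphocytes and of T cells resident in tissue, where it limits migration towards chemokines. Its levels (ENSMUSG00000026358) were 34.4, 49.5 and 29.9 FPKM in WT and 75.5, 72.1 and 82.4 in the deficient group. The groups did not overlap, with WT replicate 2 nearest to the deficient libraries. The means were 37.9 ± 10.2 and 76.7 ± 5.25 FPKM (SD, n = 3), a ratio of 2.02. On the log2(FPKM + 1) scale the difference was 1.03 (SE 0.195), and 1.04 without BMPR1a-deficient replicate 1.

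**Figure D1:**
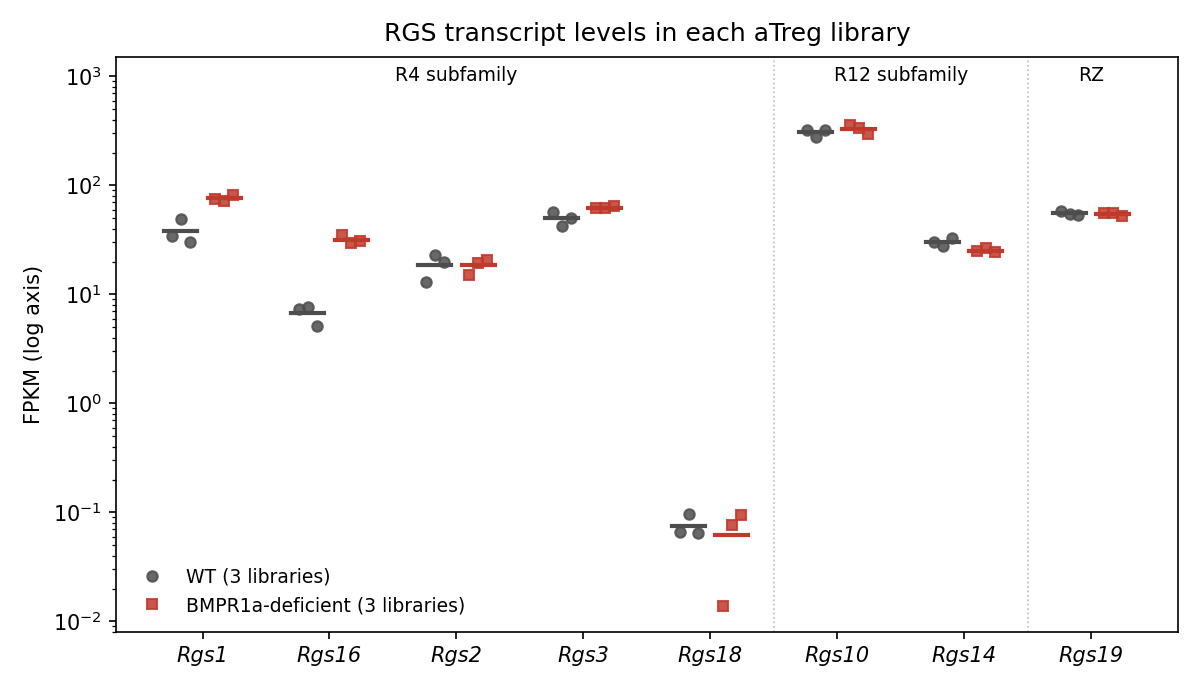
FPKM of the 8 RGS genes in each library on a log axis, with WT in grey circles and BMPR1a-deficient in red squares; points are libraries and horizontal lines group means. Rgs16 and Rgs1 show the widest gaps between the groups, Rgs10 is the highest in every library, and Rgs18 lies below 0.1 FPKM throughout.

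The other members of the R4 subfamily differed less. Rgs3, whose longer forms carry added domains next to the RGS domain, stood at 57.3, 42.3 and 49.8 FPKM in WT and at 62.4, 61.5 and 64.0 in the deficient group. Its deficient libraries lay close together and just above the highest WT library, with means of 49.8 ± 7.49 and 62.6 ± 1.27 FPKM (SD, n = 3) and a log2 difference of 0.33 (SE 0.130). Rgs2 is a selective brake on Gq. It stood at 12.97, 22.9 and 19.96 FPKM in WT and at 15.1, 19.3 and 20.8 in the deficient group. The groups covered nearly the same range, the first library of each being the lowest, and the log2 difference was 0.0089 (SE 0.231). Rgs2 and Rgs1 lie in the same run of genes on chromosome 1, and Rgs13, the gene between them, was listed at 0 in every library.

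Rgs18, a gene of platelets and their precursors, was close to nothing in both groups. Its values were 0.0656, 0.0962 and 0.0650 FPKM in WT and 0.0137, 0.0770 and 0.0940 in the deficient group. At the estimated depths the values come to about 3.93, 6.04 and 5.14 fragments per WT library and 0.99, 5.06 and 7.10 per deficient library, so no difference was detectable at this depth. The 6 platelet and megakaryocyte markers summed to 1.48 to 2.24 FPKM in WT and 1.09 to 3.44 in the deficient group. Among them Gp9 and Ppbp were at 0 in 5 of 6 libraries each. Itga2b, the highest of them, had means of 1.13 FPKM in WT and 1.57 in the deficient group, with overlap. Gp1ba was the 1 of 6 that lay higher without overlap, against 15.9% of genes with a mean of at least 1 FPKM. Its own mean, 0.464 FPKM, was below that limit. It stood at 0.360, 0.335 and 0.420 FPKM in WT and at 0.678, 0.440 and 0.551 in the deficient group. Rgs18 was below the mean of 1 FPKM needed to enter the fit across all genes.

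In the R12 subfamily, Rgs10, a short protein made of little more than the RGS domain and selective for Gi, was the most abundant RGS transcript. It stood at 321, 275 and 325 FPKM in WT and at 361, 337 and 293 in the deficient group, so the groups overlapped. The log2 difference was 0.10 (SE 0.138). Rgs14, which also binds inactive Gi alpha subunits through a GoLoco motif and has Ras-binding domains, stood at 30.1, 27.6 and 32.7 FPKM in WT and 24.8, 26.4 and 24.4 in the deficient group. It was the only one of the 8 with every deficient library below every WT library. Its mean was 83.6% of that in WT, a log2 difference of -0.25 (SE 0.0995). With TPM in place of FPKM, which sets every library to the same sum, its groups overlapped and the log2 difference was -0.035. Rgs19, the RZ member, also called GAIP, acts on Gi subunits and has a cysteine string that anchors it to membranes. It varied least: 58.6, 54.7 and 53.2 FPKM in WT against 55.7, 56.0 and 52.7, with a log2 difference of -0.018 (SE 0.0899).

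As counts, 3 of the 8 genes (Rgs1, Rgs3 and Rgs16) had every BMPR1a-deficient library above every WT library, 1 (Rgs14) had every one below, and 4 overlapped. With TPM, 4 lay above (Rgs10 as well), 0 below and 4 overlapped. Over all 13413 genes with a mean of at least 1 FPKM, 26.3% showed no overlap in either direction, 15.9% with the deficient libraries above and 10.4% below. In the limma fit across all genes, which compares the groups on log2(FPKM + 1), 7 of the 8 entered. Only Rgs16 was past an adjusted p of 0.05, as were 1.07% of all genes in either direction, 0.746% upward and 0.321% downward. Since the genes were picked with this comparison in view, nothing is read from these counts. The call of Rgs16 ended without WT replicate 2 (log2 difference 2.19), without BMPR1a-deficient replicate 3 (2.12) and with the replicate number as a block (2.10). The median log2 difference of the 7 genes was 0.10, and that of all genes tested 0.038.

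**Figure D2:**
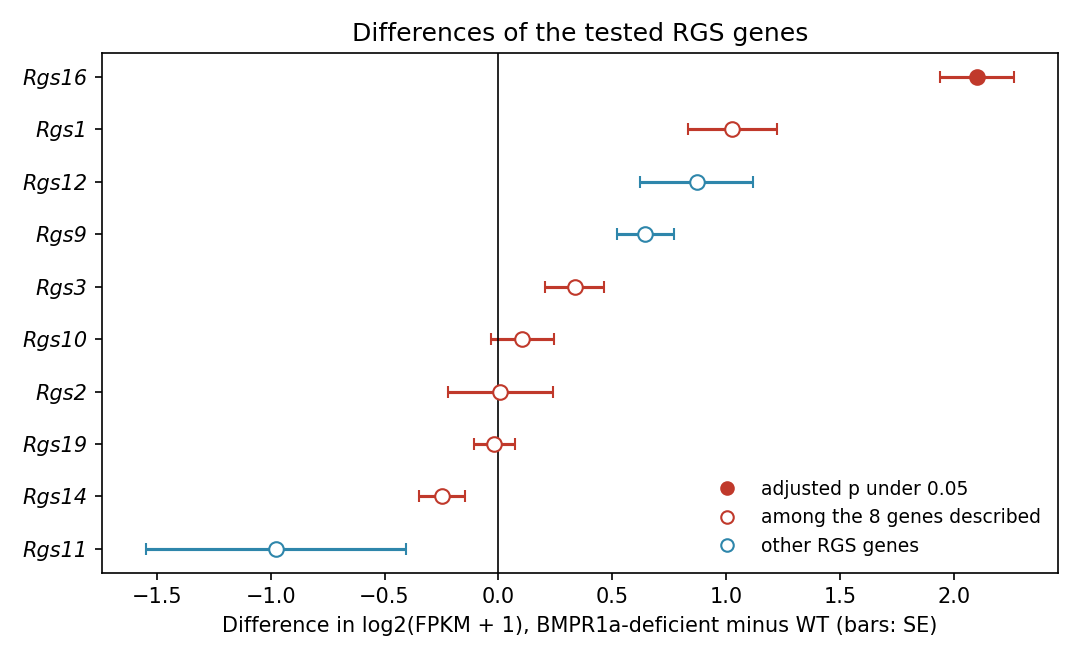
Difference in log2(FPKM + 1), BMPR1a-deficient minus WT, for the 7 described RGS genes (red) and 3 other RGS genes (blue) that entered the fit; bars are standard errors, and the filled point is past an adjusted p of 0.05. Rgs16 lies at 2.10 and Rgs1 at 1.03, while Rgs10, Rgs2 and Rgs19 lie within 1 SE of 0. Rgs16 was picked with this comparison in view, so its filled point is not a test.

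The order of the levels differed between the groups in its middle. FPKM is per length, so genes can be set side by side. In WT, Rgs10 came first at 307 ± 27.8 FPKM (SD, n = 3), 5.53 times the next. Rgs19 (55.5 ± 2.75), Rgs3 (49.8 ± 7.49), Rgs1 (37.9 ± 10.2) and Rgs14 (30.1 ± 2.60) followed, and in this stretch the libraries of each gene overlapped those of the next. Rgs2 (18.6 ± 5.11), Rgs16 (6.70 ± 1.40) and Rgs18 each lay clear of the gene above. In BMPR1a-deficient aTreg the order was Rgs10, Rgs1, Rgs3, Rgs19, Rgs16, Rgs14, Rgs2 and Rgs18, with no overlap between the libraries of any neighbours. Rgs1 thus went from place 4 to place 2 and Rgs16 from place 7 to place 5.

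As a share of the summed FPKM of the 8 genes, Rgs16 made up 1.41, 1.59 and 0.989% in the WT libraries and 5.55, 4.88 and 5.45% in the BMPR1a-deficient ones. Rgs1 made up 6.58, 10.3 and 5.80% in WT and 12.0, 12.0 and 14.5% in the deficient libraries. Together they held 8.90 ± 2.67% of the sum in WT and 18.1 ± 1.63% in the deficient group (SD, n = 3). With Rgs10 left out of the sum, the 2 genes held 22.3 ± 4.96% and 40.2 ± 1.64%. The share of Rgs10 was 60.6 ± 2.95% and 55.0 ± 3.04%. The sum itself was 506 ± 22.8 FPKM in WT and 600.0 ± 30.7 in the deficient group, with no overlap between the groups. A share is free of any scaling between libraries, since such a factor cancels within a library.

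**Figure D3:**
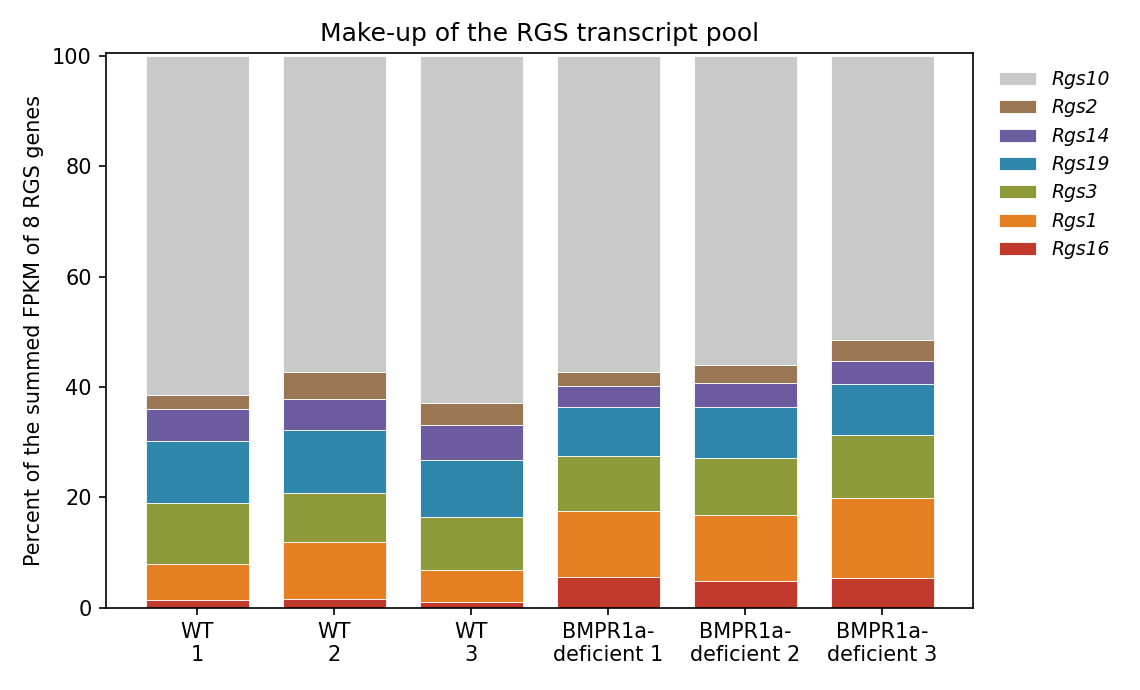
Percent of the summed FPKM of the 8 RGS genes that each gene holds, by library; Rgs18 is too low to show. Rgs16 and Rgs1 together hold 6.79 to 11.9% in WT and 16.9 to 19.9% in BMPR1a-deficient libraries, and Rgs10 holds more than every other gene in all 6.

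Rgs8, beside Rgs16 on chromosome 1 and 40025 bases away, was at 0.0168, 0.0108 and 0.0222 FPKM in WT. It was at 0.0661, 0.240 and 0.0973 in the deficient group, higher in each library but close to 0 throughout.

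The 3 genes whose centred profile over the 6 libraries was nearest to that of Rgs16, by root mean square difference in log2(FPKM + 1), were Cdh1 (0.190), Cx3cr1 (0.197) and Atp6v0e2 (0.210). Cdh1 encodes E-cadherin and went from 0.561 ± 0.345 to 5.11 ± 0.346 FPKM (SD, n = 3). Cx3cr1, the receptor for the chemokine CX3CL1, went from 0.760 ± 0.465 to 6.32 ± 1.02. Atp6v0e2, a subunit of the vacuolar proton pump, went from 0.0473 ± 0.0300 to 4.09 ± 0.442. These 3 genes had lower levels than Rgs16 in both groups. They were searched for by likeness to Rgs16, so their rise was set by the search, as is the fall of the genes nearest to Rgs14. The likeness holds on the scale with 1 added. As a ratio of means, Cx3cr1 stood at 8.31 and Rgs16 at 4.74. For Rgs14, the member with the most negative difference, the nearest were B3gnt5 (0.0320), Dmac2 (0.0325) and Hectd3 (0.0336), with log2 differences of -0.28, -0.26 and -0.21.

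Markers of other cells were measured beside Rgs16 and Rgs1, because both genes are also expressed outside CD4 T cells. The 6 markers of CD8 T and NK cells summed to 45.2 to 60.5 FPKM in WT and to 48.8 to 95.3 in the deficient group. Within that list 2 of 6 lay higher without overlap, against 15.9% of genes with a mean of at least 1 FPKM. Klrb1c and Ncr1 were below that mean. Cd8a was at 11.7, 9.56 and 8.80 FPKM in WT and at 13.8, 17.2 and 29.1 in the deficient group. Klrb1c, which encodes NK1.1, was at 0.126, 0.0727 and 0.0692 and at 0.598, 0.760 and 0.648. Ncr1, a defining gene of NK cells, was at 0 in 5 of 6 libraries. Of the others, Cd8b1 had means of 25.5 and 30.1 FPKM, Klrk1 of 7.96 and 13.5 and Eomes of 6.93 and 4.92 in WT and deficient libraries, all with overlap. The sort was for CD4+Foxp3GFP+ cells, and Cd8a and Cd8b1 transcripts were measured in all 6 libraries after it. The part of CD8 T and NK cells in the levels of Rgs16 and Rgs1 was not tested.

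The 7 myeloid markers summed to 90.1 to 204 FPKM in WT and 87.7 to 176 in the deficient group. Of these, 0 of 7 lay apart between the groups, against 26.3% of all genes. The 6 B cell markers summed to 476 to 498 and 333 to 495, mostly Ighm, also with 0 of 6 apart. The 6 erythroid markers summed to 0.0689 to 0.167 FPKM in WT and 0.174 to 0.607 in the deficient group. Fewer cells of a type and less RNA per cell cannot be told apart in bulk RNA.

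Of the 13 other RGS genes in mice that were listed for comparison, 11 were in the table and 3 had a mean of at least 1 FPKM. None of the 3 passed the limma threshold, and 2 had an unadjusted p under 0.05, against 1.07% and 15.2% of all genes. Rgs12, a large R12 member, stood at 4.82, 4.89 and 3.12 FPKM in WT and 11.8, 6.35 and 8.17 in the deficient group (log2 difference 0.87, limma adjusted p = 0.194). Rgs9, an R7 member best known from photoreceptors and striatum, stood at 0.675, 0.779 and 0.673 FPKM and at 1.61, 1.60 and 1.81 (log2 difference 0.64, limma adjusted p = 0.0897). For both, every deficient library was above every WT library, as for 15.9% of all genes. Rgs11, another R7 member, stood at 1.03, 5.38 and 8.94 FPKM in WT and at 1.76, 1.73 and 1.24 in the deficient group, so WT replicate 1 lay below all 3 deficient libraries and the other WT libraries above them (limma adjusted p = 0.462). Rgs7, Rgs13, Rgs17 and Rgs22 were listed at 0 in all 6 libraries.

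The rest of the pathway was read from 6 more lists, which with the other RGS genes hold 139 entries, of which 133 were in the table and 89 entered the fit. Across these, 3 genes were higher and 2 lower in the deficient group past the limma threshold, against 0.746% and 0.321% of all genes. Without an adjustment, 15.2% of all genes had a p under 0.05. All 5 are receptors or an effector, and 0 are G protein subunits, receptor kinases or arrestins. The lists were chosen with earlier results of these data known. Their counts are thus a description, and nothing is read from them beside the shares of all genes.

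Of 9 tested G protein alpha subunits 0 passed in limma, and 1 had an unadjusted p under 0.05. Of all genes, 1.07% passed and 15.2% had such a p. Gnai2, the main target of RGS proteins in lymphocytes, was at 294 ± 24.2 FPKM in WT and 314 ± 6.05 in the deficient group (SD, n = 3, limma adjusted p = 0.692). Gnas, which encodes the subunit that stimulates adenylyl cyclase, was at 305 ± 31.2 and 301 ± 51.7 (adjusted p = 0.937). Gna12, named after its values were seen, stood out within the list at 11.95, 7.80 and 7.78 FPKM in WT and 18.6, 25.7 and 27.1 in the deficient group. Its log2 difference of 1.29 did not pass the threshold (limma adjusted p = 0.0644). The median log2 difference of the list was -0.039.

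Of 9 tested beta and gamma subunits 0 passed in limma and 1 had an unadjusted p under 0.05. The shares of all genes were 1.07% and 15.2%, and the median log2 difference of the list was 0.13. Gnb2 was at 256 ± 29.0 and 303 ± 41.1 FPKM and Gnb1 at 153 ± 18.2 and 167 ± 7.76 (SD, n = 3, limma adjusted p = 0.488 and 0.631). Of 6 tested receptor kinases and arrestins, which switch receptors off from the other side, 0 passed in limma. An unadjusted p under 0.05 was found for 1 of them, against 15.2% of all genes. Grk2 went from 226 ± 9.24 to 207 ± 18.6 FPKM (limma adjusted p = 0.586), and Grk6 from 147 ± 3.10 to 120 ± 5.33 (adjusted p = 0.247). Of 14 tested genes with an RGS or RGS-like domain, RGS-binding proteins and exchange factors, 0 passed in limma. Here 2 had an unadjusted p under 0.05, against 15.2% of all genes. In that list Arhgef1, an exchange factor with an RGS-like domain, was at 483 ± 52.0 and 426 ± 14.4 FPKM, and Gpsm3, which binds Gi subunits, at 118 ± 18.02 and 108 ± 5.11 (limma adjusted p = 0.552 and 0.690).

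Among 34 tested receptors of lymphocytes, 2 were higher and 2 lower in limma, against 0.746% and 0.321% of all genes, with a median log2 difference of 0.035. An unadjusted p under 0.05 was found for 18 of the 34, against 15.2% of all genes. Ptger4, the EP4 receptor for prostaglandin E2, rose from 7.39 ± 1.04 to 18.1 ± 0.992 FPKM (SD, n = 3, log2 difference 1.19, limma adjusted p = 0.0172), and Cx3cr1 rose by 2.08 on the log2 scale (adjusted p = 0.0191). Hrh2, the H2 histamine receptor, fell from 2.58 ± 0.237 to 0.826 ± 0.166 FPKM (log2 difference -0.97, limma adjusted p = 0.0410). F2rl1, the protease-activated receptor PAR2, named here to complete the count, fell from 29.9 ± 2.71 to 10.9 ± 3.10 FPKM (log2 difference -1.41, limma adjusted p = 0.0457). Of the 6 fits that each left out a library, Ptger4 and Cx3cr1 passed in 2 and Hrh2 and F2rl1 in 1. Of the 34 receptors, 8 lay above and 12 below without overlap, against 15.9% and 10.4% of all genes. Since this list too was chosen with earlier results known, nothing is read from its counts.

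Of 14 tested effectors 1 passed in limma and 5 had an unadjusted p under 0.05, against 1.07% and 15.2% of all genes. Adcy5, an adenylyl cyclase that Gi inhibits, rose from 0.374, 0.250 and 0.0848 FPKM to 3.13, 2.29 and 2.01 (log2 difference 1.49, limma adjusted p = 0.0307). It passed in 1 of the 6 fits with a library left out. The median log2 difference of the effectors was 0.066.

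**Figure D4:**
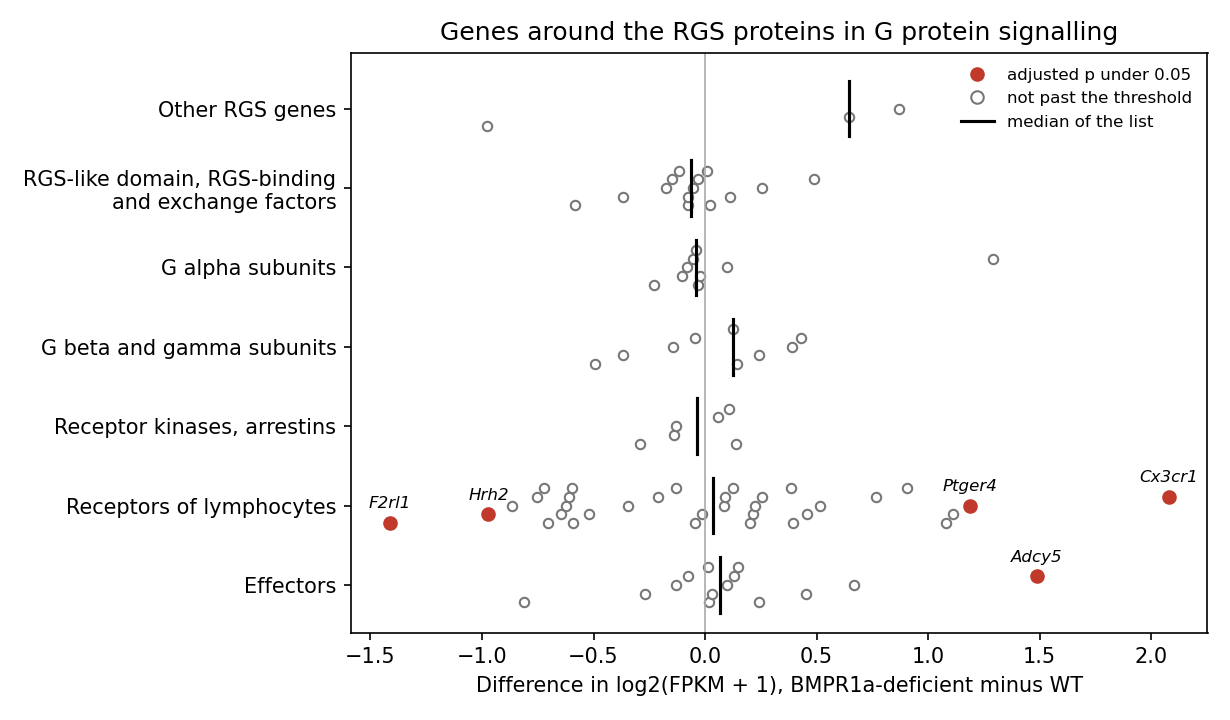
Difference in log2(FPKM + 1), BMPR1a-deficient minus WT, for each tested gene of the 7 pathway lists; points are genes, filled and named where the limma adjusted p was under 0.05, and vertical bars are list medians. The 5 named genes are receptors and the effector Adcy5, and the unnamed alpha subunit at 1.29 is Gna12.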

How the data were processed

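The authors deposited FPKM values for 6 libraries, and TopHat2, Cufflinks and Cuffdiff with the build GRCm38.p4 are named per the submitters' processing notes. How the tools were set, their versions, the annotation, strand handling and scaling between libraries is not given in the sources used here. No counts come with FPKM, so a count test was not run. Symbols from GENCODE M21 matched 24876 of 25759 identifiers, and 0 value columns were left unmapped. Depth was estimated from FPKM times length in 2185 coding genes with 1 transcript of 500 to 5000 bases, and is approximate.

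Genes with a mean of at least 1 FPKM (13413) entered a limma 3.58.1 fit (R 4.3.3) of log2(FPKM + 1) on group, using eBayes with trend. Tests were two-sided, and p-values were adjusted by Benjamini-Hochberg over all genes fitted, with a threshold of 0.05. Differences are BMPR1a-deficient minus WT and are understated for low genes. The code of the fit was run on simulated data with planted differences, and no result here rests on that run. The 8 genes and all lists were chosen with earlier results of these data known. Named are the 8 genes, other RGS genes at a mean of 1 FPKM or more, up to 3 called genes per list or else its 2 highest, and the nearest profiles. Gna12, F2rl1, Rgs8 and genes named at 0 or as markers were added after their values were seen. The alternatives comprised 15 planned settings and 1 added after seeing the data, which scaled to the summed protein-coding FPKM.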

Additional observations from a re-analysis of the deposited data

How the results depend on the processing

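The differences of the 7 tested RGS genes moved by less than the spread between replicates under most of the 16 alternatives. Rgs1, Rgs2 and Rgs3 did so under all of them, and Rgs16 under 15. Much of this was set by design. The filter on the mean, the trend and the replicate block cannot change a difference, and Rgs16 stayed at 2.10. Leaving out a library can move it by only part of that spread. A larger move was possible only with another scaling, normalization, added number or weighting, so only these were a check. With TPM in place of FPKM, the log2 differences were 1.39 for Rgs16, 0.30 for Rgs10, -0.035 for Rgs14 and 0.16 for Rgs19. TPM values are lower than FPKM here, so the 1 added before the log pulls differences further towards 0. Without that 1, the log2 ratio of the Rgs16 means was 2.24 with FPKM and 2.44 with TPM. The columns sum to 10380000 to 13360000 FPKM in WT and 8990000 to 12270000 in the deficient group. TPM levels out these sums, and it moved the median log2 difference of all genes by 0.070 on the scale with 1 added. Without that 1, the move was larger for the RGS genes. The log2 ratio of the means went from 0.106 to 0.314 for Rgs10 and from -0.019 to 0.194 for Rgs19. With quantile normalization the log2 difference of Rgs10 was 0.27. Rgs16 was past the threshold under 13 alternatives and Rgs1 under 1, sample weights. Both genes were picked with this comparison in view, so nothing is read from these calls. The sign of the Rgs2 difference, near 0, varied with the library left out (-0.22 to 0.17), as did that of Rgs19 (-0.047 to 0.020).

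Counts over all genes also depended on the settings. The main counts were 100 higher and 43 lower, and they were 47 and 9 with TPM and 833 and 407 with sample weights. Lower genes numbered 27 at a mean of at least 5 FPKM and 70 with quantile normalization. Leaving out 1 library gave 10 to 134 higher and 4 to 76 lower. The pathway lists then held 0 to 4 genes higher and 0 to 2 lower, against 3 and 2. They held 15 and 8 with sample weights, 1 and 1 at 5 FPKM, 0 lower with TPM, 1 lower without the filter and 4 lower with quantile normalization. With TPM the 1 added before the log also weighs more. The causes of these shifts were not tested.

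Replicate numbers are shared between the groups, and the labels do not say whether same-numbered libraries were handled together. Same-numbered libraries deviated together only weakly, with correlations of 0.010, 0.064 and 0.052, against -0.093 to 0.041 for the other pairs. Such values cannot settle whether the libraries were paired. With the replicate block 5 genes were higher and 5 lower, and 0 and 0 in the pathway lists. In this balanced layout the block can change only the error of a difference. The values of 1.03 for Rgs1 and 2.10 for Rgs16 thus stayed by design.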

Other observations

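Rgs7bp, which encodes the protein that anchors R7 RGS proteins to the plasma membrane, was at 0.000449 FPKM in WT replicate 1, at 1.52 and 1.29 in WT replicates 2 and 3, and at 0.00537, 0.0131 and 0.00442 in the deficient libraries. Rgs11, an R7 member, was also low in WT replicate 1, at 1.03 FPKM, against 5.38 and 8.94 in the other WT libraries and 1.24 to 1.76 in the deficient ones. Gnb5, the beta subunit that R7 proteins bind, had means of 1.34 ± 0.118 FPKM in WT and 1.27 ± 0.227 in the deficient libraries (SD, n = 3). Rgs7bp and Gnb5 were picked out after their values were seen, and the 3 WT libraries alone cannot show whether this split recurs.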
